A study of Mus musculus with 7 samples.

Results

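The genes described here encode 8 surface antigens that define or subdivide mouse blood stem cells: Kit, Ly6a, Slamf1, Cd48, Cd34, Flt3, Procr and Cd27. They were chosen by symbol, all 8 had a row among the 19649 genes of the table, and all 8 passed the filter that left 16047 genes for testing. RNA was sequenced from sorted long-term haematopoietic stem cells of mice given pI:pC, a double-stranded RNA that induces interferon, and cells were taken 14 days after the start of induction. The sort kept lineage-negative cells with SCA-1 and KIT (LSK cells) that carried CD150 and lacked CD48. The mutant group, with 3 libraries, carried, by its label, the alleles Calr fl/fl (Calr del52/del52) together with MxCre, so both copies of the calreticulin gene were of the knock-in allele. The wild-type group, with 4 libraries, was labelled Calr +/+ (Calr wildtype) MxCre. Both groups carried MxCre, a Cre recombinase under an interferon-inducible promoter that is active in many cell types besides blood stem cells, and no drug was given. Both groups therefore differ from untreated mice by the interferon inducer and the recombinase. Separate animals are not named in the labels, and a p-value here therefore speaks of the variation among libraries, which may be technical.

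KIT and FLT3 are receptor tyrosine kinases, for stem cell factor and FLT3 ligand, and blood stem and progenitor cells need KIT signalling to survive and divide. SCA-1, the product of Ly6a, is a lipid-anchored LY6 protein whose gene responds to interferon. CD150 (Slamf1) and CD48 belong to the SLAM family of adhesion and signalling receptors. In mouse marrow, CD150 marks long-term stem cells, whereas CD48 appears on multipotent and restricted progenitors. CD34, a sialomucin, and FLT3 are gained as stem cells pass to multipotent progenitors, EPCR (Procr), the receptor of protein C, is high on long-term stem cells, and CD27 is a TNF receptor family member that many stem and progenitor cells carry.

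The wild-type libraries are shown as the pairs their titles form: wild-type 1 and 2, whose titles end in those numbers, and wild-type 3 and 4, whose title numbers belong to a series that also holds mutant 1 and 2. Mutant 3 has a title of another form, and the labels attach no batch to these numbers. Reads counted in genes were 21325340 to 27083569 per mutant library and 22555594 to 28710304 per wild-type library, and each of the 8 genes had at least 103 reads in every library. Calr itself had 14239, 15724 and 15317 normalized counts in mutant 1 to 3 and 15922 to 18606 in the wild-type libraries, a level that cannot check an allele which changes the end of the coding sequence. The long-term stem cell list (14 genes, Procr and Slamf1 among them) summed to 1274 to 1464 FPKM in the mutant libraries and 1194 to 1460 FPKM in the wild-type libraries. The multipotent progenitor list, which holds Flt3, Cd48, Cd34 and Cd27, summed to 322 to 356 FPKM in the mutant and 287 to 320.4 FPKM in the wild-type libraries. Of its 8 genes, 6 had an FPKM value and entered the sum. In normalized counts the sums of this list overlapped, at 18597, 19056 and 15944 in mutant 1 to 3 and 15217 to 18347 in the wild-type libraries. Over all 7 libraries, 5 of its 7 tested genes were lower in value in the mutant (median log2 difference -0.14), and limma called 0.

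Slamf1 and Cd48 are neighbours on chromosome 1, in the same orientation, with 61.9 kb between them, and the sort selected for the product of one and against the product of the other. Slamf1 (ENSMUSG00000015316.11) lies at chr1:171767127-171801184 and Cd48 (ENSMUSG00000015355.13) at chr1:171682009-171705258, both on the plus strand of GRCm38. The 250 bases before each start are shown for this pair because the gate used their products in opposite directions (RefSeq, GRCm38.p6, chr1:171766882-171767131 for Slamf1 and chr1:171681742-171681991 for Cd48). Capitals mark matches, on either strand, to the GATA letters AGATAA or TGATAA and to the RUNX letters TGTGGT.
Slamf1: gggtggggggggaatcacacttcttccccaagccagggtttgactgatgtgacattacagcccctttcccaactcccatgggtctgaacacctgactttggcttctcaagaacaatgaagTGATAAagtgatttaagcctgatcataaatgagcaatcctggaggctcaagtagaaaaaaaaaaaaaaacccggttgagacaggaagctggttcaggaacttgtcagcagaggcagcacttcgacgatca
Cd48: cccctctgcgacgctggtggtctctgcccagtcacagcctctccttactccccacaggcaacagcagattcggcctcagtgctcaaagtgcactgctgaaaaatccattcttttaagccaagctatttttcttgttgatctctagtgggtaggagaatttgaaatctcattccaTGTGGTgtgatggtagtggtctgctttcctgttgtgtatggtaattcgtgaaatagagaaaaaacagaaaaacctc
The Slamf1 window held 1 match to the GATA letters, which 16.6% of 32851 mouse promoter windows of this length held, and the Cd48 window held 1 match to the RUNX letters, which 14.0% held. The RefSeq promoter table matched 7 of the 8 genes. A match describes these letters only.

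Ly6a, Kit and Slamf1, whose products the gate kept, were above Cd48 in every library when each gene was set per length. Cd34, Procr and Cd27, which the gate did not use, were above Cd48 in every library too. This order is therefore not particular to the kept antigens. FPKM, the authors' fragment measure per length and per library depth, was summed over the transcripts of a gene. Slamf1 had 31.0, 25.7 and 33.1 FPKM in mutant 1 to 3, 19.4 and 19.5 FPKM in wild-type 3 and 4, with 23.6 and 26.7 FPKM in wild-type 1 and 2. Cd48 had 5.19, 5.26 and 4.06 FPKM in mutant 1 to 3, 4.11 and 4.80 FPKM in wild-type 3 and 4, with 7.44 and 5.01 FPKM in wild-type 1 and 2. The ratio of Slamf1 to Cd48 FPKM was thus 4.89 to 8.14 in the mutant libraries and 3.17 to 5.32 in the wild-type libraries, and these ranges overlapped. Cd48 RNA was low but present in all 7 libraries, with 103 to 221 reads, and its mean FPKM exceeded that of 16.0% of the tested genes with an FPKM value, against 58.6% for Slamf1. An RNA level is not a measure of antigen on the cell surface, and in bulk samples fewer cells with an RNA and less RNA per cell cannot be told apart.

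Of the other antigens, Ly6a, Cd27, Cd34 and Procr had more FPKM than Slamf1 in every library. Flt3 lay between Slamf1 and Cd48, except in wild-type 1, where it was just below Cd48 (7.22 and 7.44 FPKM). Elsewhere Cd48 was the lowest of the 8 genes in FPKM. Ly6a (ENSMUSG00000075602.10, chr15:74994877-74998031, minus strand) had 232, 192 and 297 FPKM in mutant 1 to 3, 109.5 and 114 FPKM in wild-type 3 and 4, with 223 and 302 FPKM in wild-type 1 and 2. Cd27 (ENSMUSG00000030336.14, chr6:125232622-125237010, minus strand) had 124 to 175 FPKM in the mutant and 111 to 157 FPKM in the wild-type libraries, and Cd34 (ENSMUSG00000016494.9, chr1:194938819-194961279, plus strand) had 119 to 175 FPKM in the mutant and 119 to 169.7 FPKM in the wild-type libraries. The mean levels of Cd34 and Cd27 were above those of 92.8% and 92.6% of tested genes. Both genes were below Ly6a in the mutant libraries and in wild-type 1 and 2, and above it in wild-type 3 and 4. Procr (ENSMUSG00000027611.12, chr2:155751117-155755471, plus strand) had 77.0 to 105 FPKM in the mutant and 59.3 to 82.0 FPKM in the wild-type libraries. Flt3 (ENSMUSG00000042817.15, chr5:147330741-147400489, minus strand), a receptor that the long-term compartment is known to lack on its surface, had 6.24 to 11.4 FPKM in the mutant and 7.07 to 12.2 FPKM in the wild-type libraries, above 29.9% of tested genes. The Procr to Flt3 ratio of FPKM was 14.1, 6.77 and 15.9 in mutant 1 to 3, 5.04 and 5.04 in wild-type 3 and 4, with 11.4 and 10.9 in wild-type 1 and 2. Mutant 2 and wild-type 3 and 4 had the lowest of these ratios. Flt3 is the longer gene, with 6176 exonic bases against 2031 for Procr, and values ran with gene length differently among libraries, as given below. The part of length in these ratios was not tested.

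Kit (ENSMUSG00000005672.12, chr5:75574916-75656722, plus strand) took different places in the order in different libraries. It had 37.2, 49.3 and 23.7 FPKM in mutant 1 to 3, 211 and 198 FPKM in wild-type 3 and 4, with 31.4 and 33.6 FPKM in wild-type 1 and 2. In wild-type 3 and 4 it was the highest of the 8 genes, whereas in the other 5 libraries it ranked below Ly6a, Cd27, Cd34 and Procr. The ratio of Kit to Ly6a FPKM was 0.161, 0.256 and 0.0797 in mutant 1 to 3, 1.93 and 1.74 in wild-type 3 and 4, with 0.141 and 0.111 in wild-type 1 and 2.

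The 5 antigens of usual lineage cocktails described here, Cd4, Cd5, Itgam, Ly6g and Klrb1c, were lower than all 8 genes. The labels do not list the cocktail used. None of these 5 had a value in the FPKM table, and Cd3e, Cd3g, Cd8a, Cd8b1 and Il7r were not analysed here. On the scale of normalized counts per kb of exonic length, the highest lineage value in the mutant libraries was 47.7, for Klrb1c (NK1.1) in mutant 3, and the lowest of the 8 genes was 100.4, for Flt3. In the wild-type libraries the highest lineage value was 88.8, for Itgam (CD11b) in wild-type 3, and the lowest of the 8 genes was 107, for Cd48. Itgam had 66.2, 34.8 and 97.9 normalized counts in mutant 1 to 3, 446 and 221 in wild-type 3 and 4, with 38.2 and 42.6 in wild-type 1 and 2. Ly6g, a granulocyte antigen, had 38.1, 3.57 and 0 normalized counts in mutant 1 to 3, 50.1 and 27.4 in wild-type 3 and 4, with 44.8 and 50.9 in wild-type 1 and 2.

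**Figure D1:**
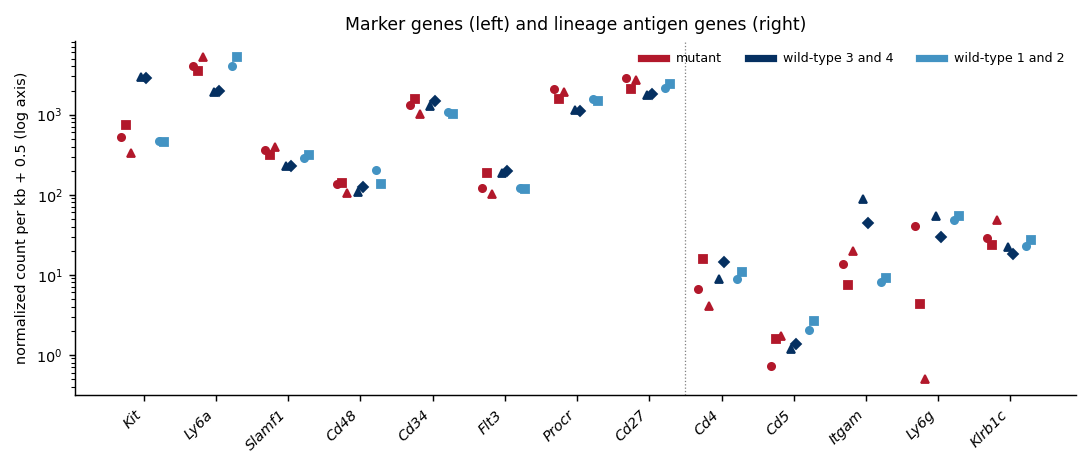
Normalized counts per kb of exonic length, plus 0.5 so that 0 can be drawn, on a log axis, for the 8 surface marker genes and 5 lineage antigen genes in every library. Circles, squares, triangles and diamonds are libraries 1 to 4 of a group. The marker genes stand at 100.4 or above and the lineage antigens at 88.8 or below, with Kit set apart in wild-type 3 and 4.

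Genes listed as markers of mature or maturing cells were nevertheless present at the RNA level, and they are given as values because their part in the results below was not tested. These lists are not exclusive to such cells. Tek is in both the endothelial and the long-term stem cell list, and Itga2b is in both the megakaryocyte list and a list of other stem cell surface markers. The neutrophil list (12 genes, all with a row, Ly6g and Mmp8 at 0 in at least 1 library) summed to 2511, 502 and 630 FPKM in mutant 1 to 3, 3836 and 2215 FPKM in wild-type 3 and 4, with 2431 and 2134 FPKM in wild-type 1 and 2. Mutant 2 and 3 were thus the lowest libraries, while mutant 1 lay within the wild-type range. Of the 12 genes, 11 were lower in value in the mutant over all 7 libraries (median log2 difference -2.11), and limma, edgeR and DESeq2 called 0 after adjustment. At an unadjusted p under 0.05 limma called 10 of the 12, beside 8.51% of all genes, edgeR 5 and DESeq2 8. S100a8 and S100a9, calcium-binding proteins of granulocytes, had the highest means of the list, with 86.3 to 733 and 80.4 to 691 FPKM in the mutant and 532 to 928 and 531 to 946 FPKM in the wild-type libraries. In mutant 2 and 3 the highest gene of the list was Prtn3, a granule protease, with 306, 194 and 329 FPKM in mutant 1 to 3 and 132 to 223 FPKM in the wild-type libraries. Prtn3 was the 1 gene of the list with a positive difference over all 7 libraries (0.55, adjusted p = 0.538 with limma). The megakaryocyte and platelet list summed to 211 to 670 FPKM in the mutant, 315 and 180 FPKM in wild-type 3 and 4, with 759 and 1125 FPKM in wild-type 1 and 2. The erythroid list, most of it Car2, summed to 1226 to 1623 FPKM in the mutant and 792 to 1306 FPKM in the wild-type libraries. B cell genes summed to 43.6 to 64.5 FPKM in the mutant and 30.2 to 53.9 FPKM in the wild-type libraries, nearly all of it Cd79b, while Ms4a1 and Pax5 were not analysed here. T and NK cell genes summed to 93.7 to 144 FPKM in the mutant and 62.6 to 181 FPKM in the wild-type libraries, from Lat and Nkg7, while Cd3d had at most 12.3 normalized counts. Monocyte genes summed to 38.0 to 42.7 FPKM in the mutant and 25.8 to 53.4 FPKM in the wild-type libraries, endothelial genes to 61.3 to 96.9 and 65.3 to 73.6 FPKM, and mast cell genes to 1.53 to 2.96 and 1.59 to 3.62 FPKM. An FPKM sum holds only genes with an FPKM value: 10 neutrophil, 11 megakaryocyte, 8 erythroid, 2 B cell and 2 T and NK cell genes. It holds 3 of 12 monocyte, 4 of 8 endothelial and 1 of 8 mast cell genes. In normalized counts the endothelial list summed to 5256, 4409 and 5535 in mutant 1 to 3. It summed to 7463 and 8117 in wild-type 3 and 4, with 4542 and 4162 in wild-type 1 and 2. No gene of the stroma list had a value in the FPKM table. Its normalized counts summed to 270.4, 265 and 378 in mutant 1 to 3, 1138 and 798 in wild-type 3 and 4, with 153 and 179 in wild-type 1 and 2, so the list was highest in the pair that was highest for Kit. Of its 8 genes 6 had a row, Cxcl12, Pdgfra and Kitl were at 0 in at least 1 library, and 3 were tested. Col1a2, a collagen chain, and Pdgfrb, a growth factor receptor of mesenchymal cells, made up most of the sum. Against wild-type 3 and 4 both were lower in the mutant libraries (-1.61 and -1.91, adjusted p = 0.00159 and 4.24e-04 with limma) and higher in wild-type 3 and 4 than in wild-type 1 and 2 (3.12 and 2.23).

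Over all 7 libraries, no antigen gene separated the mutant from the wild-type group. Limma on log2(normalized count + 1), with p-values adjusted over 16047 genes, called 0 of the 8 genes, beside 0% of all tested genes. At an unadjusted p under 0.05 it called 2 of the 8, Slamf1 and Procr, beside 8.51% of all genes, and edgeR and DESeq2 called 0 of the 8 after adjustment. In each of the 8 genes the mutant and wild-type libraries overlapped, whereas 9.57% of all genes had groups that did not (5.23% higher and 4.34% lower in the mutant). Procr averaged 3728 ± 535 normalized counts in the mutant and 2689 ± 466 in the wild-type libraries (SD, n = 3 and 4), a log2 difference of 0.48 (SE 0.20, adjusted p = 0.538 with limma). Slamf1 averaged 2190.2 ± 251 in the mutant and 1637 ± 259 in the wild-type libraries, a log2 difference of 0.43 (SE 0.19, adjusted p = 0.538 with limma). Kit had the largest difference of the 8 and the widest interval, -1.18 on the log2 scale with a 95% interval of -2.90 to 0.53. Its wild-type libraries differed by up to 6.52-fold among themselves. Ly6a differed by 0.49, Cd27 by 0.32, Cd34 by 0.09, Cd48 by -0.14 and Flt3 by -0.19, with adjusted p from 0.538 to 0.822 with limma, and the median of the 8 was 0.21 beside 0.00 for all tested genes.

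**Figure D2:**
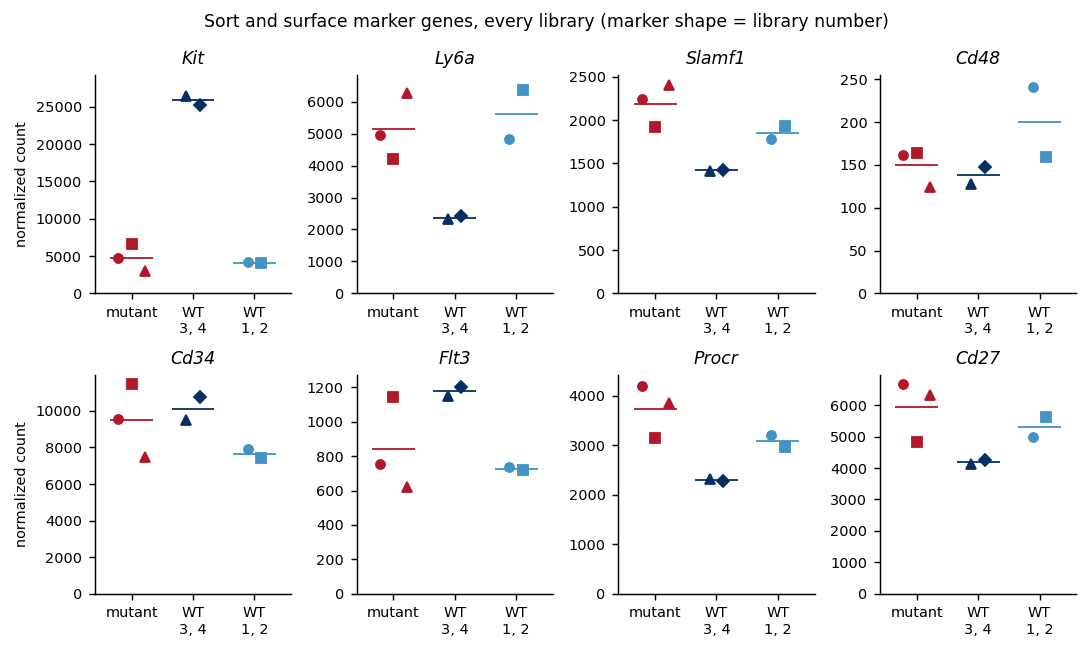
Normalized counts of the 8 genes in every library, on linear axes that start at 0. Points are libraries, with circles, squares, triangles and diamonds for libraries 1 to 4 of a group, and lines are group means. For Kit, wild-type 3 and 4 (26511 and 25305) stand far above all other libraries, and for Ly6a (2323 and 2407) below them.

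Set against wild-type 1 and 2 alone, the mutant libraries held antigen RNA at levels that could not be separated from the wild-type ones. Limma, in a fit of the 3 mutant, 2 wild-type and 2 further wild-type libraries as separate groups, called 0 of the 8 genes beside 0.312% of all tested genes (0.255% higher and 0.0561% lower). None of the 8 passed at an unadjusted p of 0.05 either, beside 11.8% of all genes, and edgeR and DESeq2 called 0 of the 8. Groups overlapped for all 8 genes, whereas 26.4% of all genes had groups that did not (13.9% higher and 12.4% lower). Kit had 4736, 6677 and 2976 normalized counts in mutant 1 to 3, against 4150 and 4068 in wild-type 1 and 2, a log2 difference of 0.15 (95% interval -0.44 to 0.74, adjusted p = 0.880 with limma). Ly6a had 4956, 4207 and 6262 against 4838 and 6363, a log2 difference of -0.13 (interval -0.54 to 0.28). Slamf1 had 2248, 1915 and 2407 against 1778 and 1931, a log2 difference of 0.23 (interval -0.08 to 0.55). For each of these genes the mutant and wild-type values overlapped. Cd48 had 162, 164 and 124 against 241 and 159, a log2 difference of -0.39, with wild-type 1 the highest of the 5 libraries and the interval running from -0.97 to 0.18. The differences of the other genes were 0.29 for Cd34, 0.26 for Procr, 0.16 for Flt3 and 0.15 for Cd27. The intervals leave room for changes of some size in either direction for Kit, Ly6a, Cd48, Cd34, Flt3 and Cd27. For Slamf1 and Procr (interval -0.07 to 0.60) they leave room mainly for a rise.

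Set against wild-type 3 and 4, with the same mutant libraries, 5 of the 8 genes differed, 4 higher and 1 lower in the mutant, beside 46.8% of all tested genes (22.1% higher and 24.7% lower). Ly6a, Slamf1, Procr and Cd27 were higher in the mutant libraries and Kit was lower, and with 8 genes a share of 62.5% is near that background. Kit had 4736, 6677 and 2976 normalized counts in mutant 1 to 3, against 26511 and 25305 in wild-type 3 and 4. It was 5.69-fold lower in the mutant libraries (log2 difference -2.51, SE 0.27, adjusted p = 1.15e-04 with limma), with every mutant library below both wild-type libraries. Ly6a had 4956, 4207 and 6262 against 2323 and 2407, and was 2.14-fold higher (log2 difference 1.10, adjusted p = 0.00145 with limma). Procr had 4192, 3143 and 3847 against 2314 and 2273, and was 1.61-fold higher (log2 difference 0.69, adjusted p = 0.00428 with limma). Slamf1 had 2248, 1915 and 2407 against 1416 and 1422, and was 1.54-fold higher (log2 difference 0.62, adjusted p = 0.00592 with limma). In each of these genes the groups did not overlap.

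Cd27 was 1.40-fold higher in the mutant libraries, at 6667, 4827 and 6341 normalized counts against 4137 and 4266 in wild-type 3 and 4 (log2 difference 0.49, adjusted p = 0.0299 with limma). This call was the least firm of the 5, since it held in 8 of 16 alternatives and was lost when any 1 library other than mutant 2 was left out (adjusted p 0.0501 to 0.151). Flt3 had 752, 1146 and 620 normalized counts in mutant 1 to 3 against 1153 and 1203 in wild-type 3 and 4, a log2 difference of -0.54 that did not pass (adjusted p = 0.0774 with limma). Without mutant 2, whose value lay next to the wild-type ones, the Flt3 difference was -0.79 with an adjusted p of 5.65e-04 in limma. That was the only 1 of 16 alternatives in which Flt3 passed, so the outcome depended on leaving out this library. Cd48 and Cd34 had overlapping groups and differences of 0.12 and -0.11. The groups did not overlap for 6 of the 8 genes, 4 higher and 2 lower in the mutant, beside 67.6% of all tested genes (33.8% higher and 33.8% lower). At an unadjusted p under 0.05, 6 of the 8 passed, beside 54.1% of all tested genes.

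**Figure D3:**
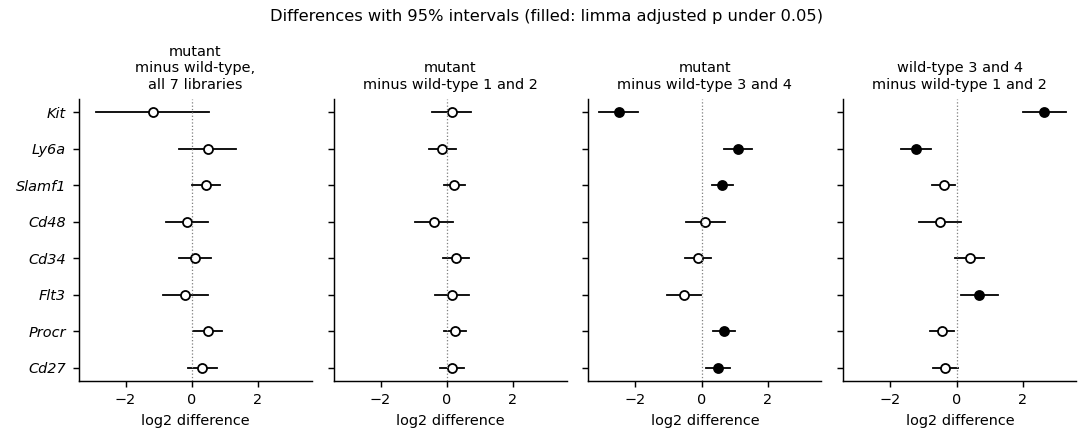
Log2 differences of the 8 genes in 4 comparisons, with limma's 95% intervals as bars and filled points where the adjusted p was under 0.05. No point is filled over all 7 libraries or against wild-type 1 and 2, 5 are filled against wild-type 3 and 4, and 3 are filled between the wild-type pairs.

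The wild-type pairs, which share a labelled genotype, differed from each other in 3 of the 8 genes, beside 45% of all tested genes (24.1% higher and 20.9% lower in wild-type 3 and 4). At an unadjusted p under 0.05, 5 of the 8 passed, beside 52.8%. Kit was 6.30-fold higher in wild-type 3 and 4 than in wild-type 1 and 2 (log2 difference 2.66, 95% interval 2.01 to 3.30, adjusted p = 1.87e-04 with limma). Ly6a was 2.35-fold lower in wild-type 3 and 4 (log2 difference -1.23, adjusted p = 0.0013 with limma). Flt3 was 1.62-fold higher, at 1153 and 1203 normalized counts in wild-type 3 and 4 against 740 and 717 in wild-type 1 and 2 (log2 difference 0.69, adjusted p = 0.0448 with limma), and this call held in 9 of 15 alternatives. It was lost without mutant 1 (adjusted p = 0.0638), which enters through the shared spread, and without any 1 wild-type library (0.131 to 0.163). Procr, Slamf1, Cd48, Cd27 and Cd34 differed by -0.43, -0.38, -0.51, -0.34 and 0.40 and did not pass (adjusted p 0.0562 to 0.172 with limma). Procr, Slamf1, Cd34 and Cd27 passed in 6, 4, 4 and 2 of 15 alternatives. Among these was a fit of only the 4 libraries compared, with adjusted p from 0.0046 to 0.0185 in limma. The share of all genes called in that fit is not given here, so these calls cannot be read as particular to the antigens. The libraries of the pairs did not overlap for any of the 8 genes, with 3 higher and 5 lower in wild-type 3 and 4, beside 77.2% of all tested genes (39.2% higher and 38% lower).

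The wild-type pairs also differed in how values ran with the length of genes, and the part of length in the differences above was not tested. Kit has 8911 exonic bases, Cd34 7290, Flt3 6176 and Slamf1 6156, whereas Cd27 has 2328, Procr 2031, Ly6a 1205 and Cd48 1189. Of the long genes, Kit, Cd34 and Flt3 were higher in wild-type 3 and 4 than in wild-type 1 and 2 and Slamf1 was lower, and all of the short genes were lower in value. Over 15770 genes, the slope of a library's deviations against log2 exonic length was -0.116, 0.0102 and -0.175 in mutant 1 to 3, 0.242 and 0.244 in wild-type 3 and 4, with -0.0981 and -0.108 in wild-type 1 and 2. Within the mutant group, Kit, Cd34 and Flt3 were highest in mutant 2 and lowest in mutant 3, and Ly6a, Procr and Cd27 were lowest in mutant 2. Slamf1, a long gene, was also lowest in mutant 2, and Cd48, the shortest, was highest there, so 2 of the 8 genes did not follow their length in this order. A fit with the slope as a covariate cannot tell length from the pair, because the slope sets wild-type 3 and 4 apart from the other 5 libraries.

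**Figure D4:**
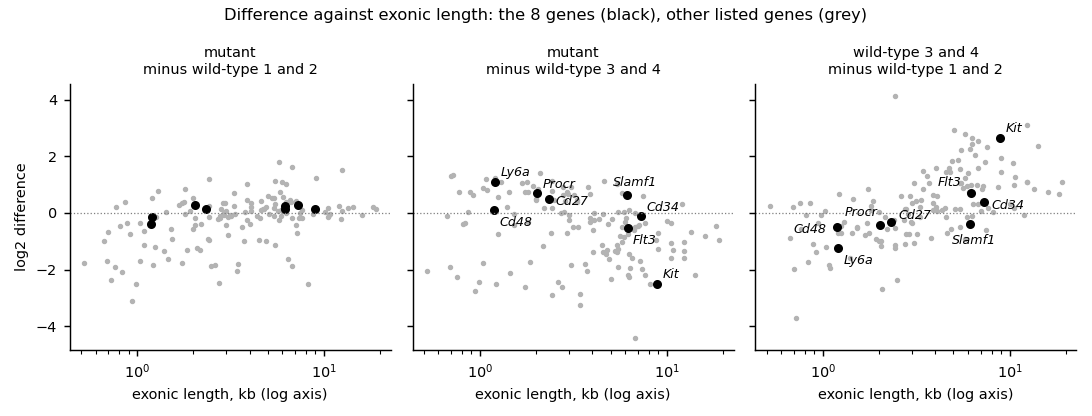
Log2 difference against exonic length (log axis) in the comparisons with each wild-type pair and between the pairs. Black points are the 8 genes and grey points the other genes of the cell type and pathway lists. Kit, the longest of the 8 at 8911 bases, lies lowest against wild-type 3 and 4 (-2.51) and highest between the pairs (2.66).

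Kit and Cd34 each have a pair of coding transcripts that differ in the protein they encode, and these are shown because the gene totals could hide a change between them. Kit-201 carries an extra in-frame stretch of 12 coding bases, at chr5:75639147-75639158 on the plus strand of GRCm38, that Kit-204 lacks. Their proteins have 979 and 975 residues, and the stretch lies in the extracellular part next to the membrane. The short form of Cd34 holds an extra exon of 156 bases (chr1:194959781-194959936, plus strand) that brings an early stop, so its protein has 325 residues against 382 for the full-length form, and the known short form of CD34 lacks most of the cytoplasmic tail. Sequences are from the GENCODE vM21 transcripts, with the bases found in only one of the pair in capitals, for the short form of Cd34 up to the stop.
Kit-201: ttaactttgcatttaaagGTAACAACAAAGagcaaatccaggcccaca
Kit-204: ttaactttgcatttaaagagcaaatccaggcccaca
Cd34 short form: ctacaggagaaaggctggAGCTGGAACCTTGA
Cd34 full length: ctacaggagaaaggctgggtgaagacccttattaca
The edges of the capitals could be placed elsewhere within 4 bases for Kit and 2 bases for Cd34, since the flanks repeat.

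Both Kit forms moved with the gene. Kit-204 had 19.5, 28.6 and 8.67 FPKM in mutant 1 to 3, 111 and 105 FPKM in wild-type 3 and 4, with 16.5 and 13.8 FPKM in wild-type 1 and 2. Kit-201 had 11.8, 16.8 and 10.4 FPKM in mutant 1 to 3, 74.7 and 77.3 FPKM in wild-type 3 and 4, with 10.9 and 10.6 FPKM in wild-type 1 and 2. As a share of both forms, Kit-204 made up 62.3%, 63.0% and 45.5% in mutant 1 to 3, 59.8% and 57.5% in wild-type 3 and 4, with 60.2% and 56.4% in wild-type 1 and 2. Mutant 3 was thus the one library in which the form with the shorter protein was the lesser one, at the lowest Kit level of all. The short form made up 32.4%, 31.0% and 32.7% of the Cd34 pair in mutant 1 to 3, 29.7% and 31.2% in wild-type 3 and 4, with 33.2% and 30.7% in wild-type 1 and 2. These ranges overlapped. These shares come from the authors' estimates, which divide reads among transcripts, and were not tested.

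**Figure D5:**
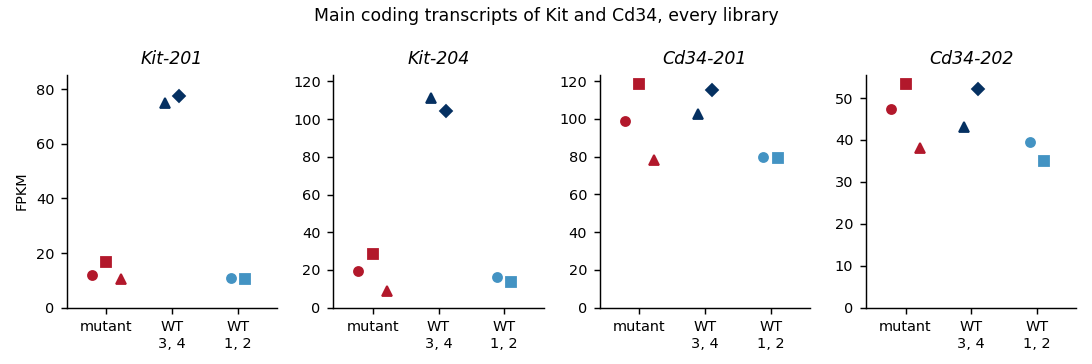
FPKM of Kit-201 and Kit-204, which encode the longer and the shorter KIT protein, and of the full-length and short forms of Cd34, panels in that order, in every library, on linear axes that start at 0; circles, squares, triangles and diamonds are libraries 1 to 4 of a group. Both Kit forms stand highest in wild-type 3 and 4 (74.7 to 111 FPKM), while the Cd34 forms overlap between mutant and wild-type libraries.

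Of the 35 transcripts of the 8 genes in the FPKM table, 23 were tested. With all 7 libraries limma called none of them, beside 0% of 30156 transcripts (6.89% at an unadjusted p under 0.05). Against wild-type 3 and 4, 6 of the 23 passed, 4 higher and 2 lower, beside 28.6% of all transcripts (16.2% higher and 12.4% lower). Kit-201 and Kit-204 were lower in the mutant libraries, by -2.48 and -2.59 on the log2 scale (adjusted p = 0.00284 and 0.00907 with limma). Those that were higher were 2 transcripts of Ly6a (by 1.06 and 1.37) and 1 each of Slamf1 (0.57) and Procr (0.88). Against wild-type 1 and 2 none passed, beside 0.00995% of all transcripts (0.00663% higher and 0.00332% lower), and between the pairs 5 passed, 2 higher and 3 lower in wild-type 3 and 4, beside 28% (12% and 16%). Kit-205, a retained-intron model, had at most 0.574 FPKM in the mutant libraries and in wild-type 1 and 2, but 15.3 and 9.88 FPKM in wild-type 3 and 4.

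A list of KIT and FLT3 ligands, signalling genes and related receptors, Pdgfrb of the stroma list among them, held 18 tested genes beside Kit and Flt3. Of these 18, 2 rose and 10 fell, Pdgfrb among the latter, in the mutant libraries against wild-type 3 and 4. Of all tested genes 22.1% rose and 24.7% fell (median log2 difference -0.91 for the list, beside 0.00 for all tested genes). Between wild-type 3 and 4 and wild-type 1 and 2, 11 were higher, 2 lower and 5 did not pass, beside 24.1% higher and 20.9% lower of all tested genes (median 0.93). Against wild-type 1 and 2, limma called 1 of the 18 genes, beside 0.312% of all tested genes. This gene was Pik3cd, the catalytic delta subunit of PI 3-kinase. Pik3cd had 3818, 3644 and 4147 normalized counts in mutant 1 to 3, 10129 and 10847 in wild-type 3 and 4, with 1958 and 1873 in wild-type 1 and 2. It was thus higher in the mutant libraries than in wild-type 1 and 2 (log2 difference 1.01, adjusted p = 0.0178 with limma) and lower than in wild-type 3 and 4 (-1.44). The call against wild-type 1 and 2 was lost without wild-type 1. The 3 groups did not overlap. Of all tested genes, 26.4% did not overlap against wild-type 1 and 2 and 67.6% did not against wild-type 3 and 4. Inpp5d, which encodes the SHIP1 phosphatase that opposes PI 3-kinase, and Cblb, a ubiquitin ligase of activated receptors, were lower in the mutant libraries than in wild-type 3 and 4, by -2.21 and -1.60 (adjusted p = 9.86e-05 and 1.41e-04 with limma). Over all 7 libraries limma called 0 of the 18 genes, 1 of them at an unadjusted p under 0.05, and edgeR and DESeq2 called 0.

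In the LY6 family, 7 genes beside Ly6a were tested. Mutant against all wild-type libraries, limma, edgeR and DESeq2 called none, with 3 at an unadjusted p under 0.05 in each, beside 8.51% of all genes with limma. Against wild-type 3 and 4, 2 rose and 1 fell in the mutant libraries, a share near the 46.8% of all tested genes. Ly6e, a widely expressed interferon-responsive member, had 34603, 32986 and 42359 normalized counts in mutant 1 to 3, 18691 and 19870 in wild-type 3 and 4, with 34470 and 36604 in wild-type 1 and 2. Like Ly6a it was lowest in wild-type 3 and 4, with a log2 difference of 0.92 for the mutant against that pair (adjusted p = 0.00157 with limma) and of 0.036 against wild-type 1 and 2. Cd59a, an inhibitor of complement on the cell surface, had 2061, 1573 and 1073 normalized counts in mutant 1 to 3, 990 and 848 in wild-type 3 and 4, with 788 and 906 in wild-type 1 and 2. All 3 mutant values were above all 4 wild-type values. It passed against wild-type 3 and 4 (log2 difference 0.72, adjusted p = 0.0303 with limma) and not against wild-type 1 and 2 (0.84, adjusted p = 0.197). Ly6c2, a myeloid antigen, fell against wild-type 3 and 4 by 2.63 on the log2 scale (adjusted p = 0.0177 with limma). With DESeq2 3 genes of the family were higher and 0 lower in this comparison, so this call was lost. Its values of 392, 33.0 and 73.7 normalized counts in mutant 1 to 3 followed the order in which mutant 1 stood above mutant 2 and 3 for neutrophil genes, and the part of such cells was not tested. Reads of similar LY6 genes may have been shared or dropped in counting, so levels within this family are uncertain.

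Of 5 tested genes of the SLAM family and its adapters beside Slamf1 and Cd48, limma called none in any of the 4 gene comparisons, with 1 of the 5 at an unadjusted p under 0.05 in each, and edgeR and DESeq2 called none. Of 3 tested genes that are related to CD34 or bind it, limma called none, with 1 at an unadjusted p under 0.05 against wild-type 1 and 2 and 1 between the pairs, and edgeR and DESeq2 each called 1 between the pairs. In the protein C pathway, Thbd, the thrombomodulin gene, had 46.0, 68.8 and 53.2 normalized counts in mutant 1 to 3, 208 and 256 in wild-type 3 and 4, with 91.8 and 133 in wild-type 1 and 2. All 3 mutant values were below all 4 wild-type values. Thbd fell against wild-type 3 and 4 (log2 difference -2.04, adjusted p = 6.21e-04 with limma) and did not pass against wild-type 1 and 2 (-0.99, adjusted p = 0.209) or over all 7 libraries (-1.52, adjusted p = 0.538). Across the 7 libraries limma called 0 of the 5 tested genes of this pathway, with 1 at an unadjusted p under 0.05, edgeR 0 and DESeq2 1. F2r, a thrombin receptor, fell against wild-type 3 and 4 by 0.50 (adjusted p = 0.0278 with limma), and none of the 5 rose, so 2 of 5 passed beside 46.8% of all tested genes. F2rl2, a related receptor, was lower in wild-type 3 and 4 than in wild-type 1 and 2 (-2.36, adjusted p = 0.00276 with limma). Between the pairs 2 of the 5 were higher and 1 lower in wild-type 3 and 4, beside 45% of all tested genes. Of 7 tested genes of the CD27 pathway, 1 rose and 3 fell against wild-type 3 and 4, near that comparison's 46.8%. Of the same 7, 4 were higher and 1 lower in wild-type 3 and 4 than in wild-type 1 and 2. Of all tested genes 24.1% were higher and 20.9% lower there. In this pathway none was called over all 7 libraries or against wild-type 1 and 2. Those that fell against wild-type 3 and 4 were Map3k14, the NF-kB-inducing kinase (-1.58), the adapter Traf3 (-1.97) and Nfkb2, the p100 subunit gene (-1.36).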

How the data were processed

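RNA sequencing of 3 mutant and 4 wild-type libraries of sorted stem cells was used. RNA was isolated with a PicoPure kit, copied with SMART-Seq v4, sheared, and turned into unstranded Swift 2S Plus libraries, as the protocols in the labels state, so reads of overlapping genes on opposite strands cannot be told apart. Per the submitters' processing notes, the build was GRCm38 and the tools were STAR 2.7.3a, Cufflinks 2.2.1, HTSeq 0.6.1, DESeq2 1.12.4 and FastQC 0.11.7. The authors' gene table holds a deposited signal, the normalized count, of which 100% of values came out as whole reads, within 0.01 reads, after undoing 1 factor per library. The second deposited table gave the authors' FPKM per transcript. Annotation was GENCODE vM21, which matched 97.9% of genes and 99.1% of transcripts, and promoters came from RefSeq.

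Differences were tested with limma 3.58.1 (R 4.3.3) with a mean-variance trend, on log2(normalized count + 1). Genes entered where 3 or more libraries had a normalized count of 10 or more. Tests were two-sided with Benjamini-Hochberg adjustment at 0.05. Fold changes are on this log2 scale, so they understate the change of low genes. The mutant was compared with all 4 wild-type libraries in a 2-group fit. Comparisons with each wild-type pair and between the pairs came from a 3-group fit over all 7 libraries, so those with each pair share the mutant libraries. Transcripts entered where 3 or more libraries had 1 FPKM or more, and were tested on log2(FPKM + 1). Simulated reads for 16047 genes were used to test each fit, and 58% of 2-fold changes were called for mutant against wild-type, 38% against wild-type 3 and 4, and 30% against wild-type 1 and 2. The simulation gave every gene the same dispersion, changed only well-counted genes and set no gap between the wild-type pairs. These rates therefore do not carry over to the real libraries, where the pairs stood apart. The SE for Kit was 0.75 over all 7 libraries and 0.27 in the 3-group fit. Alternatives changed the pseudocount, filter, scaling, test (edgeR 4.0.16, DESeq2 1.42.0 on recovered reads), libraries, a length covariate and the table.

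The genes, lists, wild-type pairs and tests were chosen with earlier results of these data known, so no list or pattern is independent support. Named genes were the 8 antigens, the 2 highest genes of each cell type list, up to 3 called genes of smallest p in each pathway list, and the 2 genes most like each antigen over the libraries. Not every gene that this rule names is described, and some listed genes are not reported here.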

Additional observations from a re-analysis of the deposited data

How the results depend on the processing

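No paired analysis was possible because the groups share no replicate number in the labels. Over all 7 libraries, 0 genes were called by limma, 107 by DESeq2 (47 higher, 60 lower), 127 with the length slope as a covariate (99 higher, 28 lower) and 0 in the other alternatives. For transcripts the count was 0, against 3 with no filter and 0 to 1 with any 1 library left out. Against wild-type 1 and 2 the count of 50 became 32 with a filter of 100, 30 with quantile scaling, 24 with edgeR, 387 with DESeq2, 27 with mutant 3 alone, and 0 (without wild-type 1) to 595 (without mutant 2) with 1 library left out; it was 33 without mutant 1, 184 without mutant 3 and 23 without wild-type 2. Against wild-type 3 and 4 leaving out 1 library gave 4348 (without wild-type 3) to 8969, with 4546 without wild-type 4, against 7511. Between the pairs it gave 4342 to 8513, against 7215, with 4342, 4658, 4519 and 4630 without wild-type 1 to 4. Quantile scaling moved the median of all genes to 0.10 against wild-type 3 and 4 and to -0.11 between the pairs.

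Kit, Ly6a and Procr passed against wild-type 3 and 4 in 16 of 16 alternatives, Slamf1 in 15 (without wild-type 3, adjusted p = 0.0525 with limma). No antigen gene passed over all 7 libraries or against wild-type 1 and 2 in any alternative. Directions turned only for differences that had not passed. Over all 7 libraries, leaving out 1 library gave -0.054 (without mutant 2) to 0.25 for Cd34, -0.44 to 0.0029 (without mutant 3) for Flt3 and -0.26 to 0.046 (without wild-type 1) for Cd48, quantile scaling gave -0.036 for Cd34, and the length slope 0.036 for Kit, -0.084 for Ly6a and 0.20 for Flt3. Against wild-type 1 and 2, leaving out 1 library gave -0.13 (without mutant 2) to 0.45 for Kit, -0.33 to 0.068 (without wild-type 2) for Ly6a, which was 0.0059 without mutant 2, and -0.093 (without mutant 2) to 0.35 for Flt3. With mutant 3 alone Kit was -0.47, Ly6a 0.17, Cd34 -0.033 and Flt3 -0.23. Against wild-type 3 and 4, Cd34 was -0.25 to 0.056 (without mutant 3), and 0.056 with mutant 1 and 2 alone. The cause of these changes was not tested. Cd48, with 103 to 221 reads, limits what could be seen: its interval over all 7 libraries ran from -0.77 to 0.49.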

Other observations

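Other surface markers used on stem cells gave 27 tested genes beside the 8. Against wild-type 3 and 4, 4 rose and 14 fell in the mutant libraries (median log2 difference -0.50, beside 0.00 for all tested genes, of which 22.1% rose and 24.7% fell). Between wild-type 3 and 4 and wild-type 1 and 2, 12 were higher and 2 lower (median 0.74), beside 24.1% and 20.9% of all tested genes. Over all 7 libraries the calls numbered 0 with limma, 0 with edgeR and 1 with DESeq2, and 4 genes had an unadjusted limma p under 0.05. Eng, the endoglin gene, a coreceptor of the TGF-beta family, had 1899, 2166 and 1618 normalized counts in mutant 1 to 3, 4762 and 5155 in wild-type 3 and 4, with 1696 and 1595 in wild-type 1 and 2 (log2 difference from wild-type 3 and 4 of -1.40, adjusted p = 1.31e-04 with limma). Itga6, an integrin chain that binds laminin, and Tie1, an orphan receptor of the angiopoietin system, differed from wild-type 3 and 4 by -1.28 and -1.62.

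The genes whose log2 values followed each antigen gene most closely were sought among 11212 genes with a mean normalized count of at least 100. Pearson's r over the 7 libraries, which include the wild-type pair that stands apart, was 0.9998 for Kit with Abr and 0.9993 with Gnptab. It was 0.999 for Ly6a with Fibp, 0.997 for Slamf1 with Acy3, 0.994 for Procr with Nudt22, 0.994 for Flt3 with Kpna3 and 0.993 for Cd27 with Atp6v0b. It was 0.987 for Cd34 with Elmod3 and 0.968 for Cd48 with Haus2. An r above 0.95 was reached by 1792 genes for Kit and by 5 genes for Cd48, so likeness to Kit is a common pattern in this table. These values describe 7 libraries and carry no test.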
